A study of Mus musculus with 12 samples.

Results

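The genes described are 9 that encode histone deacetylases and the scaffolds and adaptors of the corepressor complexes that carry them, namely *Tbl1xr1*, *Ncor1*, *Gps2*, *Hdac1*, *Hdac2*, *Hdac3*, *Sin3a*, *Sin3b* and *Rcor1*. They were chosen by their known role and by the promoter peak calls of these same lists, so the calls are a description, and they stand beside all 21464 protein-coding genes with a known strand in the RefSeq table of GRCm38.p6, the assembly behind mm10. H3K36ac, the acetylation of histone H3 at lysine 36, was mapped by ChIP-seq in spermatogonia-enriched cells of Pnd 5 (postnatal day 5) testes from 3 WT and 3 *Sirt7*-/- mice, the second group lacking the deacetylase SIRT7 in the whole animal and both on the same inbred background. Each sample held 50000 cells from a different mouse, enriched by the removal of adherent somatic cells, and the samples are numbered as replicates 2, 3 and 4 in each genotype. Each of the 6 deposited lists was called against the input of its own sample, and the 6 input samples were not analysed here on their own. A gene was counted as called in a list when any part of a peak lay within 3000 bp of its start.

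Histone deacetylases remove acetyl groups from lysines and seldom act alone. HDAC3 is activated by the corepressor NCoR, in a complex that also holds TBL1XR1 and GPS2, whereas HDAC1 and HDAC2 work in the Sin3, NuRD, CoREST and MiDAC complexes. SIRT7 belongs to the sirtuins, a separate family of deacetylases that use NAD, and H3K36ac is one of its known substrates.

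*Sirt7* itself had no peak within 3000 bp of its start in any of the 6 lists, so these lists hold no check of the genotype at the deleted gene. The *Sirt7*-/- lists held between 2045 and 2840 peaks and the WT lists between 64 and 906, and WT replicate 3 stood lowest with 64. With the 64 best peaks of every list, 1 of the 9 genes was called in a *Sirt7*-/- list (*Tbl1xr1*) and 1 in a WT list (*Hdac2*), beside 0.778% and 0.843% of all genes, so the counts below move with list length. The lists give no read coverage, and a missing peak does not show that the mark was absent. In a mixed cell sample, fewer cells carrying the mark and less of it in each cell cannot be told apart. Of 8 spermatogonial markers, *Zbtb16* (which encodes PLZF), *Gfra1*, *Uchl1* and *Dazl* had a promoter peak, each in 1 *Sirt7*-/- list and in 0 WT lists. The others, *Id4*, *Sall4*, *Kit* and *Ddx4*, had none in any list. Of 9 markers of testis somatic cells, *Sox9* had one, in 1 *Sirt7*-/- list. Over all protein-coding genes, 19.3% had a promoter peak in at least 1 *Sirt7*-/- list. A peak is no measure of expression, and the cell make-up of the samples was not tested by it.

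Promoter sequences are given for the 3 genes called in every *Sirt7*-/- list and for *Gps2*, which was called in none. They are RefSeq windows of GRCm38.p6 with 250 bases before and 50 bases from a transcript start, printed along the gene's own strand, and capitals mark the bases that lay inside every called peak of that gene. The sequence is that of the reference strain and not of the mice used. *Tbl1xr1* is shown at chr3:22076402-22076701 on the plus strand, *Hdac2* at chr10:36974294-36974593 on the plus strand, *Ncor1* at chr11:62457283-62457582 on the minus strand and *Gps2* at chr11:69913770-69914069 on the plus strand.
Tbl1xr1: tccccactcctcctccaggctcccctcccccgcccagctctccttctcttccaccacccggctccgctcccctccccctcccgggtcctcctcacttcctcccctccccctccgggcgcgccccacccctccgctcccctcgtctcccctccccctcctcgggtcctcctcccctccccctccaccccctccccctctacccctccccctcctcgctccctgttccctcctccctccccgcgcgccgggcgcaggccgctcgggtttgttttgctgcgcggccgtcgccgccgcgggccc
Hdac2: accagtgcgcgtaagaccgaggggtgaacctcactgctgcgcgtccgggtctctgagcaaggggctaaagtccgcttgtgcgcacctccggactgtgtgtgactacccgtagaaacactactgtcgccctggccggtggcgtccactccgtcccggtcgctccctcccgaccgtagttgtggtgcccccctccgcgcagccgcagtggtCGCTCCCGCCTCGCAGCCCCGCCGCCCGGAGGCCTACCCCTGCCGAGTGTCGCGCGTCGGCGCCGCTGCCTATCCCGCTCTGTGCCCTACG
Ncor1: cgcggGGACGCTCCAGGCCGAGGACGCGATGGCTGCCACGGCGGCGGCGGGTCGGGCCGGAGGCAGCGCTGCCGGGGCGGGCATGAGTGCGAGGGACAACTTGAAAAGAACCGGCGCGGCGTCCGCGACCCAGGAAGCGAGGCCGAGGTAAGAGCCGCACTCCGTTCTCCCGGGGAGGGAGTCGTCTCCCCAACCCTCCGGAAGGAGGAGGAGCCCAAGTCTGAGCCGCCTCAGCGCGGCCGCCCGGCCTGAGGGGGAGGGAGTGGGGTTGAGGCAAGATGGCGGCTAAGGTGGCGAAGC
Gps2: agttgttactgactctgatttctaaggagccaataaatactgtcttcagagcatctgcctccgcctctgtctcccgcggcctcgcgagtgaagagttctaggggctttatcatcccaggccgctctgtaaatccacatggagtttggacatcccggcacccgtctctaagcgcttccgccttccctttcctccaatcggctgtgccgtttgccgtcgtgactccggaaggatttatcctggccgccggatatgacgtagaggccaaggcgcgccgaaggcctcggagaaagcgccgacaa
In *Ncor1*, 295 of the 300 bases lay in every called peak. In *Hdac2* it was the last 91 bases, and in *Tbl1xr1* it was 0 bases. The *Tbl1xr1* peak of *Sirt7*-/- replicate 2 spanned the whole window, but the stretch shared by the 3 peaks began further into the gene. The *Tbl1xr1* peak of *Sirt7*-/- replicate 3 lay wholly beyond the window.

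Of the 9 genes, *Tbl1xr1*, *Ncor1*, *Hdac2* and *Rcor1* had a peak in at least 1 *Sirt7*-/- list, or 4 of 9, where 19.3% of all protein-coding genes had one. *Tbl1xr1*, *Ncor1* and *Hdac2* were called in all 3 *Sirt7*-/- lists (3 of 9, beside 5.09% of all genes). *Ncor1* and *Hdac2* were called in at least 1 WT list (2 of 9, beside 5.12%). Only *Tbl1xr1* among the 9 was called in all 3 *Sirt7*-/- lists and in no WT list (1 of 9, beside 2.45%). No test was made of these counts. With 3 samples against 3, no exact permutation test could have fallen below a two-sided p of 0.1.

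**Figure D1:**
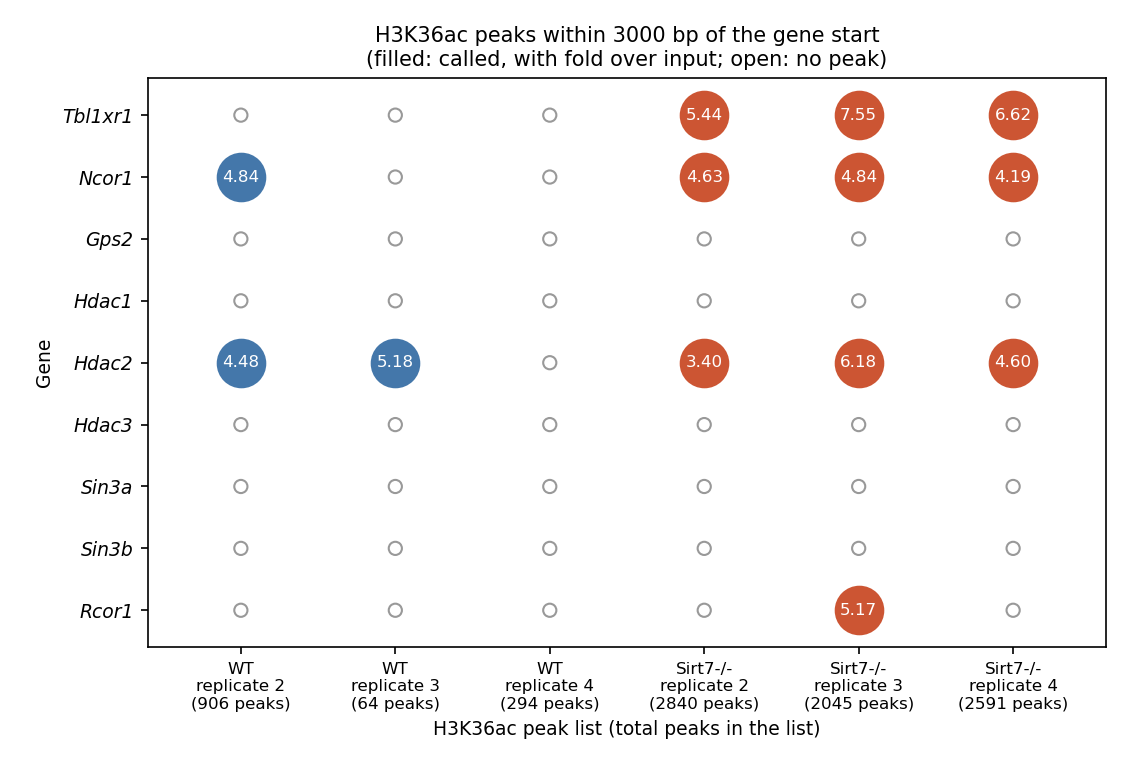
Calls of the 9 genes (rows) in the 6 H3K36ac peak lists (columns, with the number of peaks in each list). A filled circle is a peak within 3000 bp of the gene start, with its fold over input, in blue for WT and red for *Sirt7*-/-; an open circle is a gene with no peak. The 13 filled circles fall on 4 genes, 10 of them in *Sirt7*-/- lists.

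List by list, 3, 4 and 3 of the 9 genes were called in *Sirt7*-/- replicates 2, 3 and 4. In these lists 13.2%, 9.73% and 11.7% of all genes had a promoter peak. WT replicates 2, 3 and 4 called 2, 1 and 0 of the 9, where the shares over all genes were 4.38%, 0.317% and 1.35%. Together these made 13 peaks out of 54 combinations of gene and list. No gene had more than 1 peak in its window in any list.

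*Tbl1xr1* (gene ID 81004) encodes a WD40 protein of the NCoR complex, which binds histone tails and takes part in the exchange of corepressors for coactivators. It lies on the plus strand of chromosome 3 of mm10 from 22076253 to 22216594. Its peak ran from 22075958 to 22077241 in *Sirt7*-/- replicate 2, with a fold over input of 5.44. In replicate 3 it ran from 22076755 to 22077300, with a fold of 7.55. In replicate 4 it ran from 22076672 to 22077130, with a fold of 6.62. These folds were 1.34, 1.61 and 1.63 times the median fold of all peaks in the same list.

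By the authors' -log10 q, *Tbl1xr1* stood at rank 221 among the 2840 peaks of *Sirt7*-/- replicate 2, at rank 13 among 2045 in replicate 3 and at rank 28 among 2591 in replicate 4. No other member came so near the top in every *Sirt7*-/- list. In the WT lists the nearest peak on the same chromosome lay 2765045 bp or more from the gene start. Among the 525 protein-coding genes called in the same 3 lists and no other, *Tbl1xr1* stood in place 3 by its mean position, which was 3.17% from the top of the list. The genes with the most similar positions over these 3 lists were *Farsb*, a subunit of phenylalanyl-tRNA synthetase, *Btg3*, an antiproliferative gene, and *Brpf3*, a scaffold of histone acetyltransferases. They differed from *Tbl1xr1* by a mean of 1.21, 2.49 and 3.71 percentage points of the list. Likeness here means position in peak lists only.

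The shape of the *Tbl1xr1* signal differed between lists. The peak was 1284 bp wide in replicate 2 and covered the gene start, but 546 and 459 bp wide in replicates 3 and 4, where it began 502 and 419 bp into the gene. The 376 bp common to all 3 peaks lay 502 to 877 bp downstream of the start given in the gene table. The RefSeq transcript start printed above lies 399 bp downstream of that start, so that the midpoints fell at -52.5, 375.5 and 249 bp from it in replicates 2, 3 and 4. No other gene start of the table was within 3000 bp of these peaks. The call in all 3 *Sirt7*-/- lists ended when a peak had to be at least 500 bp wide, which left out replicate 4. It also ended when a peak had to lie within 500 bp of the gene-table start, which left out replicate 3, at 502 bp. From the RefSeq transcript start, all 3 midpoints lay within 500 bp, so the second loss depends on the start used.

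*Ncor1* (gene ID 20185), the scaffold that activates HDAC3, lies on the minus strand of chromosome 11 from 62315663 to 62457414 and was called in all 3 *Sirt7*-/- lists and in WT replicate 2. The WT peak had a fold of 4.84, and those of *Sirt7*-/- replicates 2, 3 and 4 had folds of 4.63, 4.84 and 4.19. The folds thus overlapped between genotypes, although a fold belongs to its own list and is not a signal that can be set against another sample's. The peaks ranked 271 of 906 in the WT list and 561 of 2840, 823 of 2045 and 967 of 2591 in the *Sirt7*-/- lists. All 4 peaks covered the gene start, and they shared 654 bp, from 62456924 to 62457577.

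The 1 *Ncor1* peak in a WT list, that of WT replicate 2, spanned 1603 bp and was the peak of rank 3 by width among 906. That of *Sirt7*-/- replicate 2 spanned 1704 bp (rank 35 of 2840). Those of *Sirt7*-/- replicates 3 and 4 spanned 831 and 804 bp (ranks 356 of 2045 and 576 of 2591). The wide peaks extended upstream, towards *Pigl*, a gene of glycosylphosphatidylinositol anchor synthesis that is transcribed away from *Ncor1* from a start 1027 bp off. The peak of *Sirt7*-/- replicate 2 covered both starts, that of WT replicate 2 ended 57 bp short of the *Pigl* start, and those of *Sirt7*-/- replicates 3 and 4 ended 864 and 816 bp short of it. The peaks are thus shared between both genes by the window used here. A second transcript start of *Ncor1*, 18899 bp into the gene, had no peak within 3000 bp in any list.

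*Gps2* (gene ID 56310), which encodes a small subunit of the same complex, had no peak in its window in any list. It lies on the plus strand of chromosome 11 from 69913980 to 69917056. In *Sirt7*-/- replicates 2, 3 and 4 the nearest peak lay 6708, 6788 and 6355 bp from the start, beyond the end of the gene and within 863 bp of the start of *Eif5a*, a translation factor. *Tbl1x*, the paralogue of *Tbl1xr1* on the X chromosome, was called in 0 of the 6 lists.

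**Figure D2:**
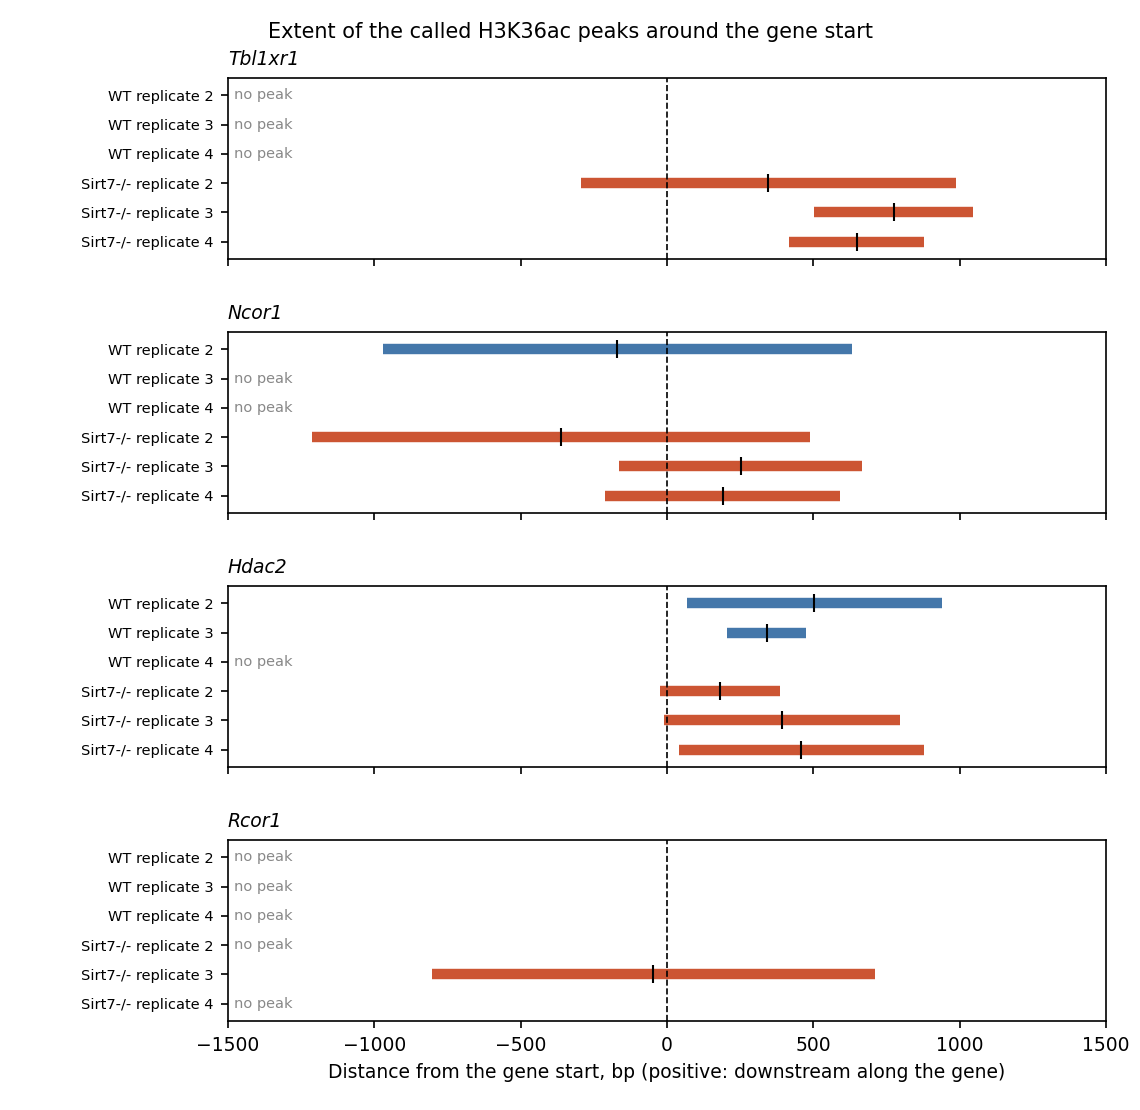
Extent of each called peak along the gene (x axis, bp from the gene start, positive values downstream) for the 4 genes with a peak, 1 row per list, WT in blue and *Sirt7*-/- in red. The black tick is the midpoint and the dashed line the gene start. All 5 *Hdac2* midpoints lie downstream of the start, and the *Ncor1* peaks of both replicates numbered 2 reach furthest upstream.

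Among the deacetylases, *Hdac2* (gene ID 15182), a class I enzyme that shares most of its complexes with HDAC1, was the member called most often, in 5 of the 6 lists. It lies on the plus strand of chromosome 10 from 36974297 to 37001889. The fold was 4.48 in WT replicate 2 and 5.18 in WT replicate 3. In *Sirt7*-/- replicates 2, 3 and 4 it was 3.40, 6.18 and 4.60. The values of both genotypes overlapped where a peak was called. As for *Ncor1*, a fold belongs to its own list and does not compare the signal between samples. WT replicate 4 had no *Hdac2* peak, and its nearest peak on the chromosome was 2395643 bp away.

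The *Hdac2* peak moved widely within the lists. It ranked 20 of 64 by -log10 q in WT replicate 3, the shortest list, and 389 of 906 in WT replicate 2. It ranked 142 of 2045 in *Sirt7*-/- replicate 3 and 540 of 2591 in replicate 4. In *Sirt7*-/- replicate 2, the longest list, it ranked 2467 of 2840, with a -log10 q of 1.31. The widths were 873 and 270 bp in WT replicates 2 and 3 and 410, 807 and 837 bp in *Sirt7*-/- replicates 2, 3 and 4. All 5 peaks contained the same 181 bp, from 36974503 to 36974683, or 206 to 386 bp downstream of the gene start. No other gene start lay within 3000 bp of them.

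**Figure D3:**
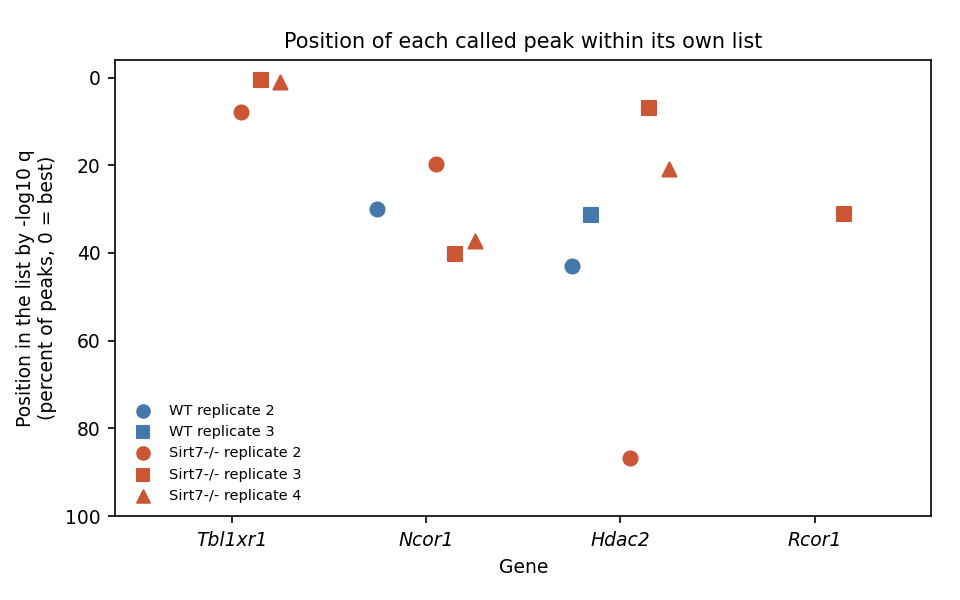
Position of each called peak within its own list by the authors' -log10 q (y axis, percent of the peaks in the list, 0 at the top for the best), by gene (x axis). Blue marks WT and red *Sirt7*-/-, and circles, squares and triangles mark replicates 2, 3 and 4. *Tbl1xr1* lies within the first 7.78% of each *Sirt7*-/- list, while *Hdac2* ranges from 6.94 to 86.9%.

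*Rcor1* (gene ID 217864), the CoREST scaffold that joins HDAC1 or HDAC2 to the demethylase LSD1, was called in *Sirt7*-/- replicate 3 alone. It lies on the plus strand of chromosome 12 from 111039367 to 111115902. The peak ran from 111038563 to 111040078, was 1516 bp wide (rank 45 of 2045 by width) and had a fold of 5.17. It ranked 635 of 2045 by -log10 q and had its midpoint at -46.5 bp from the start. The nearest peaks of *Sirt7*-/- replicates 2 and 4 were 127187 and 300667 bp away.

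*Hdac1*, *Hdac3*, *Sin3a* and *Sin3b*, like *Gps2*, had no peak in the window in any list. *Hdac1* (gene ID 433759) lies on the minus strand of chromosome 4 from 129516104 to 129542646, and the nearest peaks, 28460 and 28271 bp from its start in *Sirt7*-/- replicates 2 and 3, lay beyond its other end, beside the start of *Marcksl1*. *Hdac1* and *Hdac2* encode close paralogues with largely shared partners, and their calls were 0 and 5 of 6 lists. *Hdac3* (gene ID 15183, chromosome 18), the partner of NCoR, had its nearest peak 19677 bp from its start, in *Sirt7*-/- replicate 2, at the neighbouring gene *Diaph1*. *Sin3b* (gene ID 20467), a Sin3 scaffold on chromosome 8, had none closer than 150742 bp.

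*Sin3a* (gene ID 20466), the other Sin3 scaffold, lies on the plus strand of chromosome 9 from 57071991 to 57128368 and had a peak just outside the rule. In *Sirt7*-/- replicate 4 a peak ran from 57076552 to 57076760, 4561 bp from the gene start, with a fold of 4.52 and rank 814 of 2591. RefSeq gives *Sin3a* a second transcript start at 57076376, and the midpoint of this peak lay 280 bp downstream of it. The start of *2700012I20Rik*, a long non-coding RNA on the other strand at 57076049, was 503 bp from the peak, so that the peak cannot be assigned to 1 of these genes. Across the members, the called peak farthest from its gene start was 502 bp away (*Tbl1xr1* in *Sirt7*-/- replicate 3), and the nearest peak not counted was this one.

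The 13 member peaks were 270 to 1704 bp wide, with a median of 831 bp, where the median width of all peaks ranged from 277.5 to 480 bp between lists. Of the 13, 5 were peaks of *Hdac2* and 4 of *Ncor1*. The *Hdac2* peaks of WT replicate 3 and *Sirt7*-/- replicate 2 were narrower than the median of their own list. So was the *Tbl1xr1* peak of *Sirt7*-/- replicate 4. Midpoints of the member peaks lay downstream of the gene start in 10 of 13 cases, with a median of 340.5 bp downstream. For all promoter peaks, the median by list was between 300.5 and 340.5 bp downstream. Measured from the nearest RefSeq transcript start, a choice added once the data had been seen, the median over the member peaks was 108.5 bp, so the distance depends on the start used. By -log10 q, the median position of the member peaks was 29.9% from the top of their list.

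The members with peaks had CpG-rich promoters. RefSeq windows were found for 7 of the 9 genes. *Hdac2* and *Ncor1* each held 36 CpG dinucleotides in 300 bases, *Rcor1* 31, *Tbl1xr1* 25 and *Gps2* 24, whereas *Sin3a* and *Sin3b* each held 14. The median over 17485 protein-coding promoters was 13, with quartiles of 4 and 24. It was 29 for the 886 promoters called in all 3 *Sirt7*-/- lists and 9 for the 14024 called in no list. Divided by the count expected from the C and G content, the CpG count gave 1.01 in both *Gps2* and *Hdac2*. This ratio was 0.951 in *Ncor1*, 0.876 in *Rcor1*, 0.863 in *Tbl1xr1*, 0.778 in *Sin3a* and 0.667 in *Sin3b*. The GC content was 76.3% in *Tbl1xr1*, 72.3% in *Ncor1*, 69.7% in *Hdac2* and 69.3% in *Rcor1*. It was 50 to 56.7% in those members without a peak that had a window. GC content also bears on how many reads a fragment yields, and its part in the calls was not tested.

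**Figure D4:**
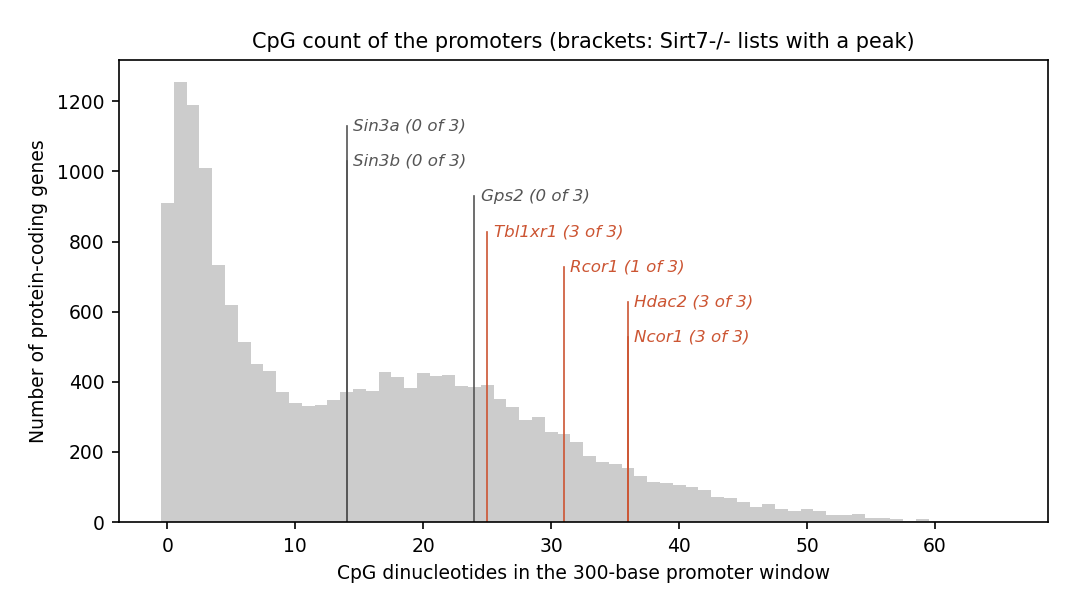
Number of CpG dinucleotides in the 300-base promoter window (x axis) of 17485 protein-coding genes (grey bars, number of genes on the y axis), with the members marked by lines and the number of *Sirt7*-/- lists in which each was called in brackets. The 4 members with a peak, in red, hold 25 to 36 CpG dinucleotides, and the 3 without, in grey, hold 14 to 24.

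Short motifs were searched on both strands of the same windows, counting exact letters. GGGCGG, the core bound by SP factors, was present in 6 of the 7 members and in 46.3% of all promoters. CCGGAAG, bound by ETS factors, was in *Ncor1* and *Gps2* and in 11.9% of all. AAGATGG, part of the YY1 motif, was in *Ncor1* and in 6.35% of all. CCAAT was in *Gps2*, *Sin3a* and *Rcor1* and in 39.2% of all, and TATAAA was in *Sin3b* and in 13.3% of all. *Rcor1* held 6 matches of GGGCGG and *Ncor1* 2. A match of letters is not a bound site.

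The remaining subunits of these complexes and 8 other deacetylases, also listed with earlier results of these data known, together numbered 50. A peak in at least 1 *Sirt7*-/- list was found for 29 of them, beside the 19.3% of all genes. Of the 50, 20, 19 and 17 were called in *Sirt7*-/- replicates 2, 3 and 4, and in the WT lists of the same numbers 6, 0 and 1. Their promoters had a median of 27 CpG dinucleotides in the 41 windows found. By group, 12 of 17 other Sin3 subunits, 8 of 11 NuRD subunits, 5 of 9 other CoREST subunits and 2 of 3 MiDAC subunits had a peak in at least 1 *Sirt7*-/- list. Of the 8 other deacetylases, which include the class IIa enzymes, *Hdac5* alone had one, in 2 *Sirt7*-/- lists.

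**Figure D5:**
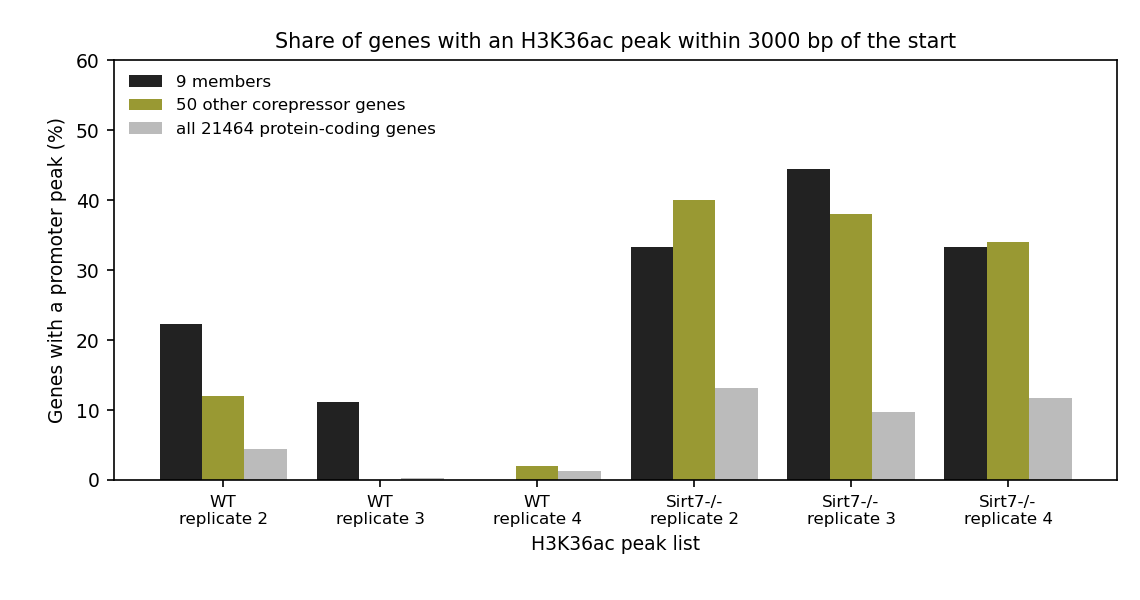
Share of genes with an H3K36ac peak within 3000 bp of the start (y axis, percent) in each of the 6 lists (x axis), for the 9 members (black), the 50 other corepressor genes (olive) and all 21464 protein-coding genes (grey). In the *Sirt7*-/- lists the members stand between 33.3 and 44.4%, the other corepressor genes between 34 and 40%, and all genes between 9.73 and 13.2%.

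Of these 50 genes, 7 were called in all 3 *Sirt7*-/- lists, beside 5.09% of all genes. No WT list called 4 of these 7, beside 2.45% of all genes called in all 3 *Sirt7*-/- lists and no WT list. Among them were *Rcor3*, of the CoREST family, and *Mbd3* and *Mta3*, of NuRD. In the order of replicates 2, 3 and 4, the *Mbd3* folds were 5.71, 6.67 and 4.55 and its ranks 122 among 2840, 51 among 2045 and 764 among 2591 peaks. *Mta3* had folds of 4.70, 4.50 and 4.45, and *Rcor3* of 3.64, 4.16 and 4.06. Next to the single *Rcor1* peak, its paralogue *Rcor3* was thus called in 3 lists, although at ranks of 2587, 1750 and 1369, in the lower part of each.

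The other 3 genes called in all 3 *Sirt7*-/- lists were also called in WT replicate 2. They were *Suds3*, a core Sin3 subunit, *Morf4l1*, a chromodomain protein associated with SIN3B, and *Rbbp4*, a histone chaperone of Sin3 and NuRD. The *Suds3* peak stood at 0.552% from the top of WT replicate 2 and at 7.96%, 44.4% and 8.80% of *Sirt7*-/- replicates 2, 3 and 4. *Morf4l1* stood at 6.62% of WT replicate 2 and at 2.39%, 3.91% and 36.7% of the *Sirt7*-/- lists. *Rbbp4* stood in the lower part of each, at 64.5% of WT replicate 2 and at 69.5%, 91.5% and 95.9% of the *Sirt7*-/- lists. *Kdm1a*, which encodes LSD1, and *Dnttip1* of MiDAC were each called in WT replicate 2 and in 2 *Sirt7*-/- lists. *Sinhcaf*, a Sin3 subunit, was called in WT replicate 4 and in 2 *Sirt7*-/- lists. *Mbd2*, of NuRD, was called in WT replicate 2 alone, at rank 731 of 906.

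WT replicate 2 decided most of the WT calls. Without it, *Ncor1* joined *Tbl1xr1* among the members called in all 3 *Sirt7*-/- lists and no WT list (2 of 9, beside 4.1% of all genes), and the count among the other 50 genes went from 4 to 7. Without *Sirt7*-/- replicate 2, 3 or 4, the count among the 50 was 7, 7 and 8 and the member count stayed at 1, while the share over all genes went from 2.45% to 3.37%, 4.38% and 3.6%. The rule was looser in these settings, since only the remaining *Sirt7*-/- lists had to hold a peak.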

How the data were processed

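H3K36ac ChIP-seq was analysed in 3 WT and 3 *Sirt7*-/- samples, grouped by their titles. The authors used Trim Galore 0.6.6 for trimming, Bowtie2 2.4.4.1 for alignment to mm10, and SAMtools 1.19.2 and Sambamba to keep unique, non-duplicated reads. Broad peaks were called by the authors in each sample with MACS2 2.2.5 against that sample's input, with no pooling. The authors found the barcode counts of the nucleosome spike-in similar across samples and applied no scaling factor. For every peak the deposited files hold a position, a score that restates the -log10 q and went unused, a fold over input (a ratio set by the authors), a -log10 p and a -log10 q.

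The 9 members and the 50 other deacetylase and complex genes were chosen with earlier results of these data known. Gene starts came from RefSeq on GRCm38.p6 (1 per gene, no exons). Strand came from the RefSeq promoter table for 17491 genes and from GENCODE vM39 by symbol for 3973, among them *Hdac1* and *Hdac3*, and the other protein-coding genes of the 21896 were left out. Peaks were assigned within 3000 bp and ranked within their list. The genes named are all members and those of the 50 called in any WT or in all 3 *Sirt7*-/- lists. Genes sharing a member's peak and the 3 nearest in position to the best member are named too. *Marcksl1*, *Eif5a*, *Diaph1*, *Hdac5* and *Tbl1x* were added after their values were seen, and some genes that the rule names are not reported here. No test was made. The peak assignment was tested on 1000 simulated peaks, of which 100% were right. Python 3.11.15, pandas 2.3.3, NumPy 2.4.6 and matplotlib 3.10.9 were used. The study states the trimmed reads of each sample, which were not used here, and the lists do not hold the reads kept after filtering, so no interval is given.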

Additional observations from a re-analysis of the deposited data

How the results depend on the processing

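*Tbl1xr1* as the only member called in all 3 *Sirt7*-/- and no WT lists was kept with a window of 1000 or 5000 bp, a -log10 q of at least 2, any RefSeq transcript start, and a common minimum -log10 p of 5.99. The last 2 were chosen after seeing the data. Over the settings that kept it, the same call held for 0.946 to 2.61% of all genes. The count was 0 when a peak had to cover the gene-table start or end within 500 bp of it (1.98% of all genes). It was also 0 with peaks at least 500 bp wide (1.12%) and with the 64 best peaks of every list (0.00466%). With a replicate left out it was 1 to 2 (2.49 to 4.38%), and the call then needed only the remaining lists. With 64 peaks per list, 1 member was called in a *Sirt7*-/- list (*Tbl1xr1*, beside 0.778% of all genes) and 1 in a WT list (*Hdac2*, beside 0.843%). With a replicate left out, members called in any WT list numbered 1 to 2, beside 1.55 to 5.12% of all genes. Of the other 50 genes, 2 were called in all 3 *Sirt7*-/- and no WT lists at a -log10 q of at least 2 (1.68% of all genes), 2 with wide peaks (1.12%), 2 at the common minimum (0.946%) and 0 with 64 peaks per list (0.00466%). With a replicate left out, 4 to 8 of them were called in every remaining *Sirt7*-/- list and no remaining WT list (2.49 to 4.38%). The median position of member peaks was 18.3% when ranked by width, 25% by fold, and 20.8 to 30.5% with a replicate left out. The median distance was 108.5 bp from the nearest RefSeq transcript start. No paired analysis was possible because the results come from no test, and a shared replicate number marks no shared animal. The part of read depth in the calls was not tested.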
